A study of Mus musculus with 10 samples.

Results

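The membrane mucins of the uterine surface were examined as a group of 6 genes, *Muc1*, *Muc4*, *Muc13*, *Muc15*, *Muc16* and *Muc20*, taken by symbol as mucins that are anchored in the apical membrane of epithelial cells. Of these, 5 were found among the 45706 genes of the count table, all 5 of them entered the test on 25146 genes, and *Muc16* was not analysed here. The data were RNA-seq libraries of uteri from 10 adult mated female mice at gestation day (GD) 3.5, on the day the uterus becomes ready for embryo attachment. The controls were 5 *Arid1a f/f* mice, in which both *Arid1a* alleles are flanked by loxP sites and no Cre is present. The other 5 mice were *Ltf iCre/+ Arid1a f/f* (here cKO, conditional knockout), in which Cre made from the lactoferrin locus deletes *Arid1a*, a subunit of the SWI/SNF chromatin remodeling complex, in the endometrial epithelium of the adult. All animals therefore carried the floxed alleles on a mixed C57BL/6 and 129 background, the controls lacked the *Ltf iCre* allele, and the driver can also be active in neutrophils and other myeloid cells. Levels are in CPM, the reads of a gene scaled to the library's effective total, with 59296537 to 72702411 counts per library.

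Membrane mucins are long glycoproteins whose extracellular part is densely decorated with O-linked sugars. They form a coat on the luminal surface of the uterus that keeps microbes and embryos away from the epithelial cells, and in the mouse this coat is thinned before an embryo attaches. *Muc1* is the best known of them in the uterus and is held high by estrogen and low by progesterone in the mouse. Whether these genes differed between the genotypes on the day of receptivity is the question that the comparison addresses.

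*Muc1*, *Muc4* and *Muc20* were higher in cKO than in control uteri, and none of the 5 measured members was called lower. With edgeR's quasi-likelihood test and Benjamini-Hochberg adjustment over all tested genes, 3 of 5 members were called higher at an adjusted p under 0.05 and 0 lower. Over all genes, 5.19% were called higher and 4.51% lower. The median log2 fold change was 2.19 for the 5 members and 0.03 for all tested genes. In 4 of the 5, *Muc1*, *Muc4*, *Muc13* and *Muc20*, every cKO uterus lay above every control, which was so for 5.53% of all tested genes. With DESeq2, *Muc13* was also called and the count became 4 of 5, against 8.47% of all genes called higher. The 5 cKO uteri were far from alike: replicates 1 and 5 stood highest for *Muc1*, *Muc4* and *Muc20*. When both were left out, the same 3 members were called, with 2358 genes called in all against 2438 before. Both uteri were picked for their high values, and leaving them out narrows the cKO spread, so these calls give no separate support.

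**Figure D1:**
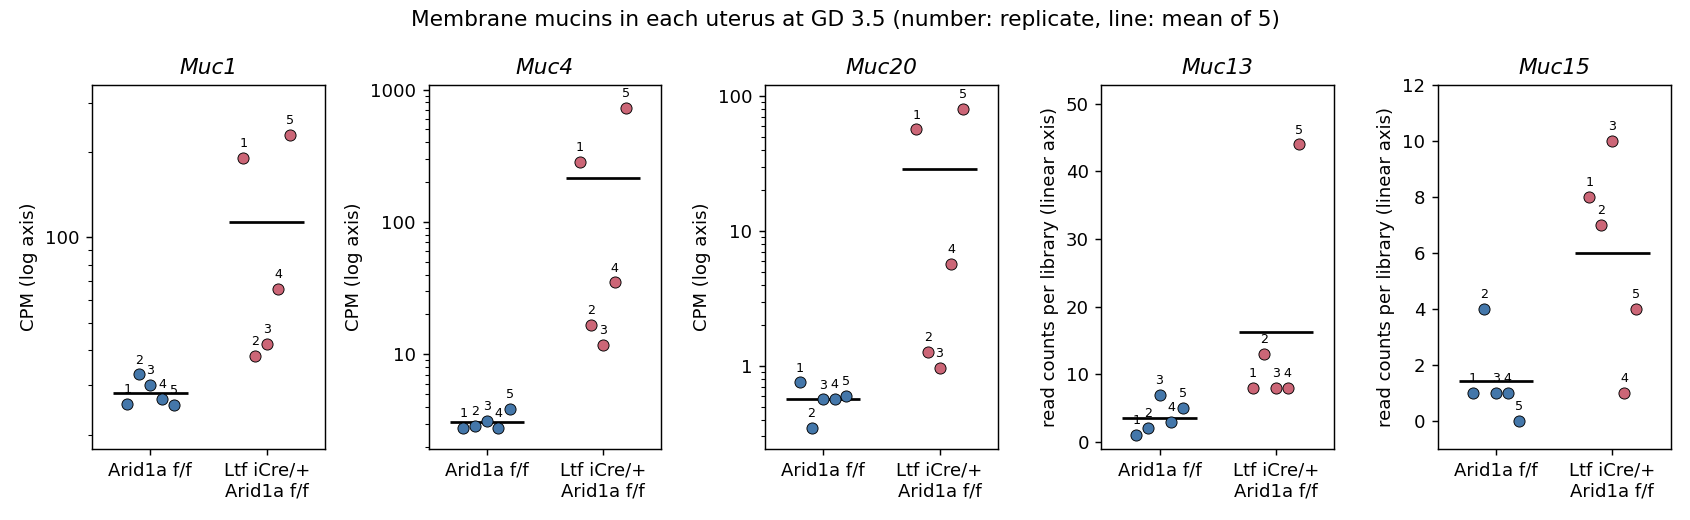
Each point is 1 uterus, numbered by replicate, for the 5 measured mucins; the y axis is CPM (log axis) for *Muc1*, *Muc4* and *Muc20* and raw read counts (linear axis) for *Muc13* and *Muc15*, and the line is the mean of 5. The cKO uteri lie above all controls for every mucin but *Muc15*, and cKO replicates 1 and 5 are the 2 highest for *Muc1*, *Muc4* and *Muc20*.

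The genotype and the cell makeup of the libraries were checked first. *Arid1a* stood at 213 ± 22.9 CPM in control and 185 ± 15.9 CPM in cKO uteri (SD, n = 5 each), a log2 difference of -0.20 that did not pass the test (edgeR adjusted p = 0.201). RNA came from uterine tissue with all its cell layers, so fewer cells of a type and less RNA per cell cannot be told apart in any value here. *Ltf* itself, the driver gene and an estrogen-responsive secretory protein, was higher in cKO uteri by 7.23 on the log2 scale (SE 1.36, edgeR adjusted p = 0.00920), with 2.22 to 11.7 CPM in controls and 23.6 to 2831 CPM in cKO uteri, and it was higher by 5.27 without cKO replicate 5. Markers of epithelium were present and were higher in the cKO: 8 of 12 were called higher and 0 lower, and their summed level ran from 924 to 1219 CPM in controls and from 1333 to 2811 CPM in cKO uteri. Neutrophil markers were called higher for 2 of 9 genes, and their sum, 6.04 to 23.1 CPM in controls, was 882 CPM in cKO replicate 5 and 12.3 to 23.1 CPM in the other 4 cKO uteri. Mesothelium markers had 3 of 10 called higher, with sums of 216 to 267 against 208 to 330 CPM, and gland markers had 2 of 7 called lower, with sums of 84.0 to 129 against 13.7 to 54.0 CPM. The sums of stroma (2 of 9 called lower, 15304 to 22320 against 12752 to 22038 CPM), myometrium (0 of 7 called, 6497 to 11407 against 3398 to 9153 CPM) and macrophage markers (0 of 7 called, 139 to 291 against 245 to 598 CPM) overlapped between the genotypes. Oviduct markers had 1 of 7 called higher and 2 lower, with sums of 52.6 to 82.6 against 37.2 to 64.5 CPM. For comparison, 5.19% of all tested genes were called higher and 4.51% lower. Only 2 gland, 2 neutrophil and 1 oviduct marker were at 0 reads in any control. The part of these shifts in the mucin results was not tested, except for epithelium, where the mucins are also given relative to its markers further on.

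The *Muc1* gene lies at chr3:89229057-89233381 (GRCm38, plus strand), and it encodes a mucin whose cytoplasmic tail binds signaling proteins such as beta-catenin. *Muc1* stood at 25.8, 32.8, 30.1, 26.7 and 25.6 CPM in control replicates 1 to 5. The cKO uteri had 192, 38.2, 41.9, 65.9 and 231 CPM in the same order. All 5 cKO uteri were above the controls, but replicates 2 and 3 only just, the lowest cKO value being 1.16 times the highest control value. The group means were 28.2 ± 3.13 and 114 ± 90.8 CPM (SD, n = 5 each). The log2 fold change of *Muc1* was 2.01 (SE 0.48, edgeR adjusted p = 0.0239, DESeq2 adjusted p = 0.000185), and an exact two-sided permutation test on log2 CPM over all arrangements of the uteri gave p = 0.00794, the smallest it allows. Without cKO replicates 1 and 5 the difference was smaller and still called, with a log2 fold change of 0.79 (edgeR adjusted p = 0.0135). The edgeR call was lost when any 1 of the 5 controls was left out, at adjusted p values from 0.0517 without control replicate 1 to 0.0594 without control replicate 3, while the log2 fold change stayed between 1.97 and 2.06 there.

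*Muc4* lies at chr16:32735886-32782391 (plus strand) and encodes a very large mucin that can bind the receptor ERBB2. It had the largest log2 fold change of the measured mucins. The controls had 2.77, 2.86, 3.15, 2.77 and 3.85 CPM, from 195 to 268 reads per library. The cKO uteri had 286, 16.7, 11.9, 35.0 and 723 CPM, from 725 to 49997 reads. Thus the groups did not overlap, and the lowest cKO uterus was 3.08 times the highest control. The means were 3.08 ± 0.457 and 215 ± 307 CPM (SD, n = 5 each), so that the SD of the cKO group exceeded its mean. The log2 fold change of *Muc4* was 6.12 (SE 1.15, edgeR adjusted p = 0.00920, exact permutation p = 0.00794). The size depended on cKO replicate 5, without which it was 4.83, and without both replicates 1 and 5 it was 2.78 (edgeR adjusted p = 0.000351). The call passed in every one of the 17 alternative fits that were run.

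*Muc20* lies directly beside *Muc4*, at chr16:32777419-32797435 on the minus strand, and encodes a mucin that can bind the receptor MET. Its controls had 0.755, 0.348, 0.564, 0.568 and 0.603 CPM, only 25 to 54 reads. The cKO uteri had 56.6, 1.27, 0.965, 5.72 and 80.5 CPM, from 59 to 5562 reads. As for *Muc4*, replicates 5 and 1 were the highest by far and all 5 were above the controls, the lowest by 1.28 times. The means were 0.568 ± 0.145 and 29.0 ± 37.1 CPM (SD, n = 5 each). The log2 fold change of *Muc20* was 5.67 (SE 1.21, edgeR adjusted p = 0.0158, exact permutation p = 0.00794). It was 4.82 without cKO replicate 5, 5.28 without cKO replicate 1 and 2.22 without both (edgeR adjusted p = 0.0222). The call was just lost without control replicate 2 (log2 fold change 5.53, edgeR adjusted p = 0.0501).

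The 3' ends of *Muc4* and *Muc20* overlap on opposite strands over 4973 bp, chr16:32777419-32782391. Exons of both genes share 627 bp there, which is 5.33% of the exonic bases of *Muc4* and 15.6% of those of *Muc20*. Which strand the counts were taken from is not given in the sources used here, so reads from the shared stretch cannot be assigned with certainty to either gene. For every 100 reads counted for *Muc4*, 12.2 to 27.3 were counted for *Muc20* in the controls. In cKO replicates 1 to 5 this was 19.8, 7.61, 8.14, 16.4 and 11.1. The ratio was thus below that of every control in cKO replicates 2, 3 and 5 and within the control range in cKO replicates 1 and 4. The part of reads from the shared stretch in the *Muc20* difference was not tested.

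*Muc13* and *Muc15* were near the limit of detection. *Muc13* (chr16:33794037-33819934, plus strand), a mucin best known from the gut, had 1, 2, 7, 3 and 5 reads in control replicates 1 to 5 and 8, 13, 8, 8 and 44 reads in the cKO. Its level was 0.0532 ± 0.0382 CPM in control and 0.246 ± 0.222 CPM in cKO uteri (SD, n = 5 each), where 3 reads correspond to about 0.0418 to 0.0507 CPM. Every cKO uterus was above every control, but by 1.06 times at the closest. Its log2 fold change of 2.19 (SE 0.66) missed the threshold with edgeR (adjusted p = 0.0576) and passed it with DESeq2 (adjusted p = 0.0161), and it was 1.46 without cKO replicate 5. *Muc15* (chr2:110721340-110739527, plus strand), a smaller glycoprotein of the membrane, had 1, 4, 1, 1 and 0 reads in the controls and 8, 7, 10, 1 and 4 reads in the cKO. The groups overlapped, with 4 of 5 cKO uteri above all controls, and the log2 fold change of 2.15 (SE 0.80) did not pass (edgeR adjusted p = 0.113). *Muc15* lies within *Ano3* on the opposite strand, so its few reads are also uncertain in origin.

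Per kilobase of exon, which allows a rough comparison between genes, *Muc1* had the highest level of the 5 measured members in every uterus. In controls its level per length was 12 ± 1.34 CPM per kb (SD, n = 5), followed by *Muc4* at 0.262 ± 0.0389, *Muc20* at 0.141 ± 0.0361, *Muc13* at 0.0175 ± 0.0126 and *Muc15* at 0.00558 ± 0.00589. The ranges of *Muc1*, *Muc4* and *Muc20* did not overlap in controls, whereas those of *Muc13* and *Muc15* did. In cKO uteri the order of the means was the same, with *Muc1* at 48.5 ± 38.7 CPM per kb, *Muc4* at 18.2 ± 26.1, *Muc20* at 7.20 ± 9.21, *Muc13* at 0.0809 ± 0.0732 and *Muc15* at 0.0269 ± 0.0166. The ranges of *Muc1* (16.3 to 98.5) and *Muc4* (1.01 to 61.5) overlapped between cKO uteri, as did those of *Muc4* and *Muc20* (0.240 to 20.0) and those of *Muc13* and *Muc15*. The range of *Muc20* lay above that of *Muc13*, whose highest cKO value was 0.210. The sum of the 5 mucins was 12.4 ± 1.30 CPM per kb in control and 74.1 ± 72.9 in cKO uteri.

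Within that sum, *Muc1* took 95.6 to 97.5% in the controls. In cKO replicates 1 to 5 it took 68.0, 89.8, 93.0, 86.4 and 54.7%. *Muc4* took 1.70 to 2.87% in the controls and 20.2, 7.83, 5.25, 9.14 and 34.1% in the cKO. All cKO uteri were thus outside the control range for both genes, in the direction of less *Muc1* and more *Muc4* within the sum of the measured mucins. The share of *Muc20* ran from 0.604 to 1.64% in controls and from 1.25 to 11.7% in cKO uteri.

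**Figure D2:**
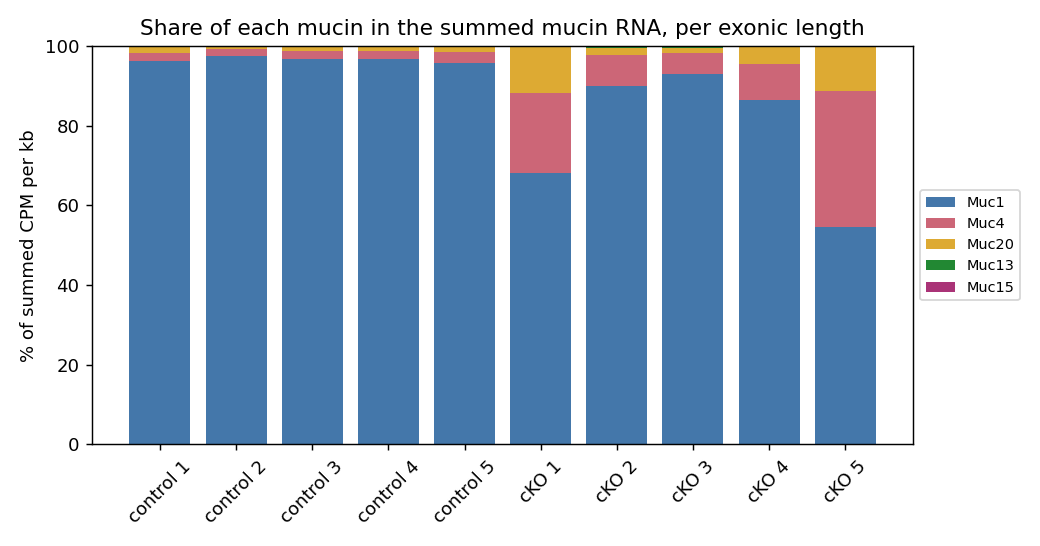
Each bar is 1 uterus and is divided by the share of each mucin in the sum of the 5 measured mucins, in % of summed CPM per kb of exon. *Muc1* takes 95.6 to 97.5% in the 5 controls, and in cKO replicates 1 and 5 it is down to 68.0 and 54.7% with *Muc4* and *Muc20* making up the rest.

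Since the epithelium markers were higher in cKO uteri, the mucins were also taken relative to them, as the log2 CPM of each mucin minus the mean log2 CPM of 12 epithelium markers. That marker mean was itself higher by 0.75 in the cKO, by 1.28, 0.53, 0.38, 0.65 and 0.89 in replicates 1 to 5 (exact permutation p = 0.00794). On this scale *Muc4* was higher by 3.71, with all 5 cKO uteri above the controls (exact permutation p = 0.00794). *Muc20* was higher by 3.04, with 4 of 5 above (exact permutation p = 0.0159), and its p rose to 0.0556 to 0.0635 when control replicate 2, 3, 4 or 5 was left out. *Muc1* was 0.87 above the control mean, and 3 of 5 cKO uteri were above all controls, a difference that did not pass (exact permutation p = 0.0635). In cKO replicates 2 and 3, *Muc1* was at -0.09 and 0.20 against the control mean, so it was at control level per epithelium marker there, and leaving either out brought the p to 0.0159 or 0.0397. *Muc13* (0.82, exact permutation p = 0.175) and *Muc15* (0.51, p = 0.310 in the same test) did not pass. Without cKO replicates 1 and 5 the differences were smaller, at 2.11 for *Muc4* (exact permutation p = 0.0179), 1.22 for *Muc20* (exact permutation p = 0.0357) and 0.23 for *Muc1* (exact permutation p = 0.250). These tests were not adjusted for each other, and a shift of 12 markers gives only a rough measure of epithelial RNA.

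**Figure D3:**
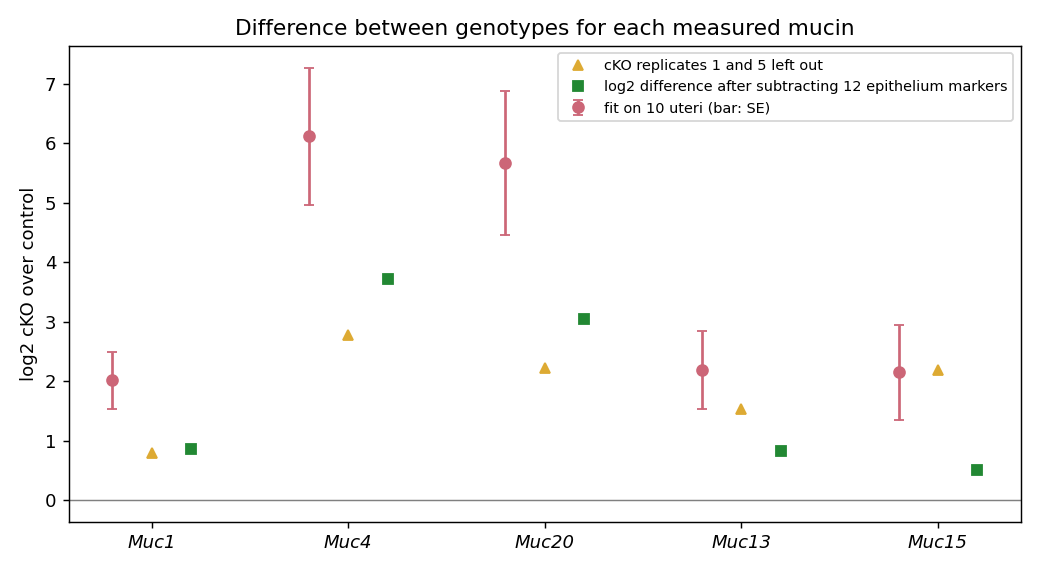
For each mucin, the log2 difference of cKO over control is plotted from the edgeR fit on 10 uteri (circle, bar: SE), from the fit without cKO replicates 1 and 5 (triangle), and after subtracting the mean of 12 epithelium markers (square). *Muc4* has the largest value on all 3 scales (6.12, 2.78 and 3.71), and *Muc1* is near 0.8 to 0.9 on the latter 2.

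The profiles of the 3 well-measured mucins over the 10 uteri were compared with those of 14591 genes by the root mean square difference of log2 CPM, each centred on its control mean. *Muc4* and *Muc20* were each other's closest gene, at a distance of 0.66, and their exons overlap in part, as given above. The cKO uteri ranked 5, 1, 4, 2 and 3 from high to low for both. After *Muc20*, the genes closest to *Muc4* were *Gjb2*, a gap junction protein, at 0.68 and *Clca1*, a secreted protein of mucous epithelia, at 0.84. After *Muc4*, those closest to *Muc20* were *Spp1*, which encodes osteopontin, at 0.82 and *Steap1*, a membrane metalloreductase family member, at 0.83. *Muc1* was at 2.21 from *Muc4* and at 1.93 from *Muc20*. This distance also counts the size of the changes. The root mean square of the profile itself was 1.38 for *Muc1*, 3.56 for *Muc4* and 3.28 for *Muc20*. The distances therefore do not show that *Muc1* had another pattern over the uteri. The genes closest to *Muc1* were *Fam213a* (0.21), *Map3k9*, a kinase (0.22), and *Mgam*, a glucosidase (0.26). The rank of the cKO uteri for *Muc1* was 5, 1, 4, 3 and 2.

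The genes directly beside the mucins were mostly not called. Next to *Muc1*, *Mtx1* at 1968 bp (log2 fold change 0.10, edgeR adjusted p = 0.518) and *Trim46* at 795 bp (-0.04, adjusted p = 0.899) were not called. The *Muc4* and *Muc20* pair is flanked by *Tnk2*, 52392 bp below *Muc4* (-0.06, edgeR adjusted p = 0.775), and *Rubcn*, 24267 bp above *Muc20* (-0.16, adjusted p = 0.178), and neither was called. Of 27 tested genes that start within 500 kb of the *Muc4* start, 3 were called higher, *Muc4* and *Muc20* among them, and 2 lower. Over all tested genes, 5.19% were called higher and 4.51% lower. The third higher gene was *Tfrc*, the transferrin receptor, with a log2 fold change of 1.18 (edgeR adjusted p = 0.0181), and the lower ones were *Iqcg* (-0.98, adjusted p = 0.00991) and *Osbpl11* (-0.27, adjusted p = 0.0411). Beside *Muc13*, *Heg1* (-0.52, edgeR adjusted p = 0.109) and *Itgb5* (0.27, adjusted p = 0.125) were not called. The nearest tested genes outside *Muc15* were far off, *Gm13935* at 301720 bp (-0.47, edgeR adjusted p = 0.812) and *Lpcat4* at 1499940 bp (0.71, adjusted p = 0.0239), and *Ano3*, which overlaps it, was not called (-0.16, adjusted p = 0.846).

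**Figure D4:**
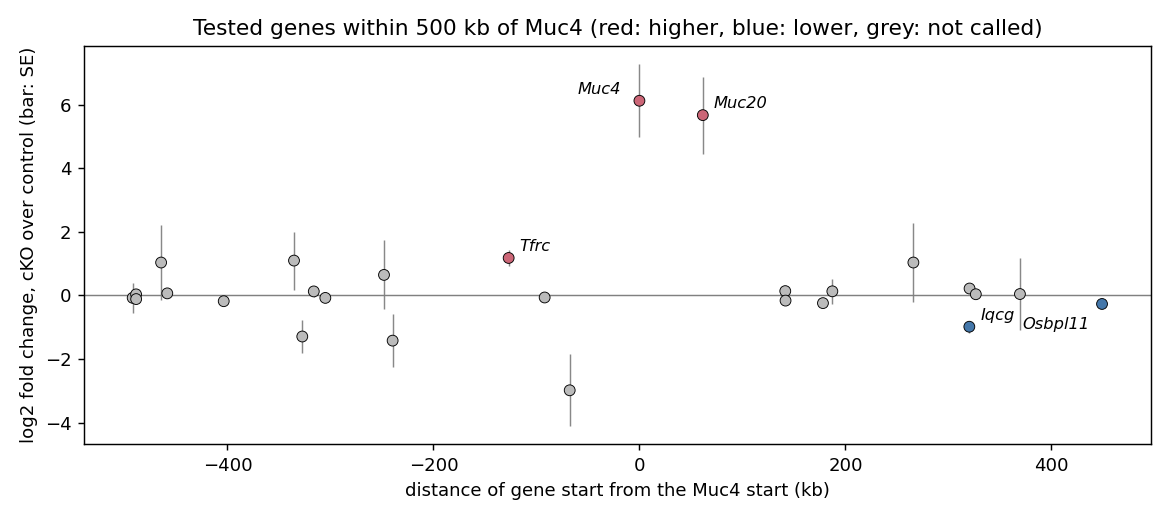
The log2 fold change of cKO over control (y axis, bar: SE) is plotted against the distance of each gene's start from the *Muc4* start in kb for 27 tested genes; red was called higher, blue lower and grey was not called. *Muc4* and *Muc20* stand at 6.12 and 5.67, and the next called gene, *Tfrc*, at 1.18.

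The 250 bases upstream of the RefSeq start of the 3 called mucins (GRCm38.p6) are shown because these genes were higher together and their upstream sequence could be compared. Each runs 5' to 3' on the gene's own strand, from chr3:89228806-89229055 (plus) for *Muc1*, chr16:32735636-32735885 (plus) for *Muc4* and chr16:32797436-32797685 (minus) for *Muc20*. Capitals mark matches to the motifs named below, which were searched on both strands.
Muc1: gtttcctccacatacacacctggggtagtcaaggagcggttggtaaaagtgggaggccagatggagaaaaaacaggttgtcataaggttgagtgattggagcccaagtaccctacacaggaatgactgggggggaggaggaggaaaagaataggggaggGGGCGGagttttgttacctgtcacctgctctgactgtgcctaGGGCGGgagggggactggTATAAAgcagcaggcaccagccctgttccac
Muc4: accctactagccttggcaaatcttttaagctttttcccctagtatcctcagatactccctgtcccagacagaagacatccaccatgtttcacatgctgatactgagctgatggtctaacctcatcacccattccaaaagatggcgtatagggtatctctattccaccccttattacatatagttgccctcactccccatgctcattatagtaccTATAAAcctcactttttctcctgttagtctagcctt
Muc20: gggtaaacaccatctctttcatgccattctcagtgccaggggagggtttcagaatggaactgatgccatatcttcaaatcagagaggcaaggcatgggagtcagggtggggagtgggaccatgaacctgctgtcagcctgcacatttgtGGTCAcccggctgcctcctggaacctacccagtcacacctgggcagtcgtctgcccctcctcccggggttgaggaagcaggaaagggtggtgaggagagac
No marked motif was common to all 3 sequences. *Muc1* and *Muc4* each have a TATA box just upstream of the start, at -31 to -26 and at -36 to -31, a match to TATAAA that 13.6% of 32851 promoter windows hold within 250 bases before and 50 after the start. *Muc1* also has GC boxes, matches to GGGCGG, at -91 to -86 and at -49 to -44 (35.7% of windows hold one). *Muc20* has no TATA box here and has an estrogen response element half-site, GGTCA, at -101 to -97 and another after the start at 27 to 31 (40.5% of windows hold one). The AP-1 motif TGANTCA, present in 7.81% of windows, was not found in the 3 windows. The same was true of the progesterone response element half-site AGAACA, present in 19.0%. Neither the STAT motif TTCNNNGAA, present in 8.30%, nor the E-box CACGTG, present in 7.15%, had a match, and neither did the NF-kB motif (4.51%). This says only that these letters are not in these windows. The GC content of the 300-base windows was 55.7% for *Muc1*, 43.7% for *Muc4* and 59.3% for *Muc20*, against a median of 52.7% over all windows. RefSeq windows were matched for 5 of the 6 mucins, the exception being *Muc15*.

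Other mucins and mucin-like genes did not follow the membrane mucins as a list. Of 20 listed genes, 14 were tested, 1 was called higher and 3 lower, against 5.19% and 4.51% of all tested genes. Without cKO replicates 1 and 5 the counts were 0 and 4. The median log2 fold change was -0.06, against 0.03 over all genes. *Cd24a*, a small mucin-like surface protein, had 209 to 299 CPM in controls and 304 to 1597 CPM in cKO uteri (log2 fold change 1.46, edgeR adjusted p = 0.0495). Its call held in only 3 of the 10 fits with 1 uterus left out (adjusted p up to 0.114), and without cKO replicates 1 and 5 its log2 fold change was 0.44 (edgeR adjusted p = 0.0616). *Ovgp1*, a secreted glycoprotein that is also a marker of oviduct epithelium, was lower by 2.21 on the log2 scale, from 19.8 ± 6.32 to 4.26 ± 2.54 CPM (SD, n = 5 each; edgeR adjusted p = 0.0106). The sialomucins *Podxl* (-0.99, edgeR adjusted p = 0.00614) and *Emcn* (-0.89, adjusted p = 0.00273), both known from vascular endothelium, were also lower. *Cd164*, a sialomucin, was not called (0.18, edgeR adjusted p = 0.460). *Muc3a*, an intestinal membrane mucin, had 0.738 to 1.13 CPM in controls and 0.220 to 0.697 CPM in cKO uteri, all 5 below every control, and its log2 fold change of -0.89 missed the threshold with edgeR (adjusted p = 0.0837) and passed it with DESeq2 (adjusted p = 0.0169). It was named after its values were seen. The gel-forming mucins were hardly present: *Muc5ac* was at 0 reads in all libraries, *Muc5b* had at most 1, and *Muc2* stood at 0.426 ± 0.109 CPM in control and 0.647 ± 0.222 CPM in cKO uteri (SD, n = 5 each) without being called (edgeR adjusted p = 0.237).

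The enzymes that build O-linked sugars on mucins moved in both directions. Of 32 listed genes, all tested, 7 were called higher and 5 lower, against 5.19% and 4.51% of all tested genes. Without cKO replicates 1 and 5 the counts were 6 and 4. The median log2 fold change was -0.04, against 0.03 over all genes. With 1 uterus left out in turn the higher calls numbered 5 to 7 and the lower calls 2 to 5, and the lower calls were 2 or 3 without any 1 control or without cKO replicate 4 or 5. The fucosyltransferases that make the H antigen were among the higher: *Fut2* had 7.40 to 20.8 CPM in control and 32.8 to 75.4 CPM in cKO uteri (log2 fold change 2.17, SE 0.31, edgeR adjusted p = 0.00265). *Fut1*, at a far lower level, had 0.0783 to 0.230 against 0.355 to 1.74 CPM (2.47, edgeR adjusted p = 0.0116). *Galnt3*, which starts O-glycan chains, had 6.81 to 8.46 CPM in controls and 74.7, 15.1, 12.5, 15.1 and 48.7 CPM in cKO replicates 1 to 5 (2.11, edgeR adjusted p = 0.0188). Replicates 1 and 5 were again the highest for *Galnt3*, which lost its call by a little without control replicate 2 (adjusted p = 0.0522) or 3 (adjusted p = 0.05002, just above the threshold) and had a log2 fold change of 0.89 without both of those cKO replicates. *Galnt12*, of the same enzyme family, was higher by 1.53 (edgeR adjusted p = 0.0102), with 35.9 CPM in cKO replicate 1 and 12 to 13.8 CPM in the other 4, against 5.48 to 6.87 CPM in controls. *Chst4*, a sulfotransferase, was higher by 1.54 (edgeR adjusted p = 0.00707), and here cKO replicate 2 had the highest value. *St6galnac1*, a sialyltransferase that caps the first sugar, was lower by 2.22 on the log2 scale, from 0.460 to 0.923 CPM in controls to between 0 and 0.235 CPM (edgeR adjusted p = 0.0337), a call held in 3 of 10 fits with 1 uterus left out. *Galnt1*, the gene of the list at the highest level, was lower by 0.31, from 200 ± 11 to 161 ± 10.1 CPM (SD, n = 5 each; edgeR adjusted p = 0.0251, held in 6 of 10 such fits).

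**Figure D5:**
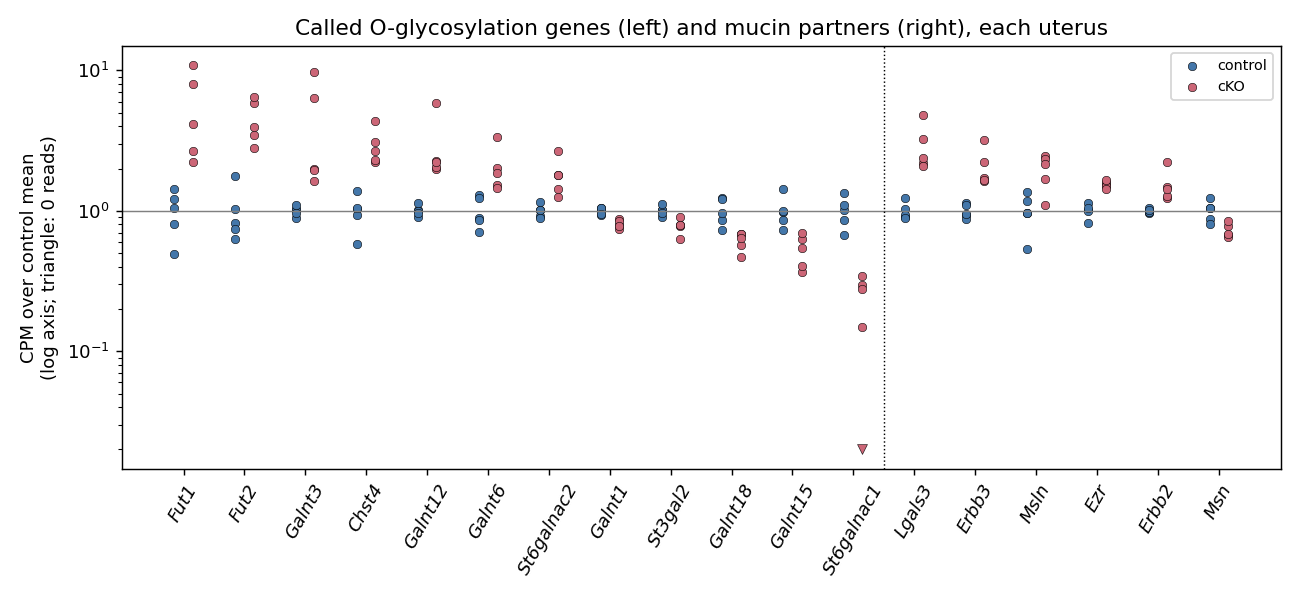
The CPM of each uterus over the control mean (log axis) is plotted for the 12 called O-glycosylation genes, left of the dotted line, and the 6 called mucin partners, right of it; blue is control, red cKO, and the triangle marks a cKO library with 0 reads. *Fut1*, *Fut2* and *Galnt3* are highest at the left, and *St6galnac1* is the lowest gene.

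Proteins known to bind membrane mucins or to act with them had 5 of 15 genes called higher and 1 lower. Over all tested genes these shares were 5.19% and 4.51%. Without cKO replicates 1 and 5 the counts of the list were 4 and 1. With 1 uterus left out in turn they were 3 to 5 and 0 to 2. The median log2 fold change was 0.16, against 0.03 over all genes. *Lgals3*, which encodes galectin-3, a lectin that crosslinks mucins at the cell surface, had 12.6 to 17.4 CPM in controls and 45.7, 31.1, 29.2, 33.3 and 67.6 CPM in cKO replicates 1 to 5 (log2 fold change 1.55, SE 0.22, edgeR adjusted p = 0.00260). The receptor genes *Erbb3* (1.06, edgeR adjusted p = 0.00601) and *Erbb2* (0.61, adjusted p = 0.0257) were higher as well, and *Ezr*, the linker of apical membrane proteins to actin, rose from 174 ± 20.6 to 268 ± 15.5 CPM (SD, n = 5 each; 0.63, edgeR adjusted p = 0.00335). Receptor genes of the list that were not called were *Egfr* (-0.52, edgeR adjusted p = 0.147) and *Met* (0.56, adjusted p = 0.406), both named after their values were seen. The calls of *Lgals3*, *Erbb3* and *Ezr* held whichever uterus was left out, whereas that of *Erbb2* was lost without any 1 control (adjusted p 0.0512 to 0.0634). *Msln*, which encodes mesothelin, a binding partner of the MUC16 protein and a mesothelium marker, was higher by 0.96 (edgeR adjusted p = 0.0464), and *Msn*, which encodes moesin, was lower by 0.46 (adjusted p = 0.0424). The call of *Msln* held in 1 of 10 fits with 1 uterus left out and that of *Msn* in 3 of 10. *Ctnnb1*, which encodes beta-catenin, was not called (0.16, edgeR adjusted p = 0.497). Of 5 genes for the shedding of membrane mucins, 0 were called higher and 1 lower, the protease inhibitor *Timp3* (-0.46, edgeR adjusted p = 0.0339, held in 3 of 10 such fits and lost without cKO replicates 1 and 5). The protease gene *Mmp14*, the highest of the 5 in level over all 10 uteri, was not called (0.06, edgeR adjusted p = 0.839).

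Hormone-responsive genes are given beside the mucins because *Muc1* is among the genes that estrogen and progesterone are known to regulate. Of 8 estrogen-responsive genes, 2 were called higher, against 5.19% of all tested genes. These were *Ltf* and *Lcn2* (log2 fold change 8.60, edgeR adjusted p = 0.0139, and 7.13 without cKO replicate 5). The median of the list was 1.85, against 0.03 over all genes. Without cKO replicates 1 and 5 the same count of 2 was called, the log2 fold change of *Lcn2* was 3.46 and the median of the list was 0.34, and with 1 uterus left out in turn the median was 0.93 to 2.10. The complement gene *C3*, the highest of them in level over all 10 uteri, did not pass (1.60, edgeR adjusted p = 0.106). *Ltf* and *Lcn2* were highest in cKO replicate 5, at 2831 and 1659 CPM, where the neutrophil marker sum was 882 CPM. In cKO replicate 1 they were at 383 and 635 CPM, with a neutrophil marker sum of 16.0 CPM. The part of neutrophils in these values was not tested. Of 14 tested progesterone-responsive genes, 0 were called higher and 3 lower, against 5.19% and 4.51% of all tested genes. The lower ones were the growth factor gene *Areg* (-4.49, edgeR adjusted p = 0.00131), *Calca*, which encodes calcitonin (-2.39, adjusted p = 0.0427), and the hedgehog receptor gene *Ptch1* (-0.87, adjusted p = 0.0462). *Hoxa10*, the highest in level over all 10 uteri, was not called (-0.39, edgeR adjusted p = 0.247). In the other direction, *Cyp26a1* (2.18) missed the threshold with edgeR (adjusted p = 0.0567) and passed it with DESeq2 (adjusted p = 0.00259). It was named after its values were seen. The median of that list was -0.41, and without cKO replicates 1 and 5 it had 2 genes called higher and 5 lower. With 1 uterus left out in turn it had 0 to 1 higher and 1 to 4 lower, and 1 lower without any 1 control or without cKO replicate 5. The calls of *Calca* and *Ptch1* each held in 3 of 10 fits with 1 uterus left out, and the part of either list in the mucin differences was not tested.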

How the data were processed

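The uterine mRNA of *Arid1a f/f* (5 samples) and *Ltf iCre/+ Arid1a f/f* females (5 samples) was sequenced in 50 bp paired end reads. The authors trimmed reads with cutadapt 1.18 and Trim Galore 0.6.4, checked them with FastQC 0.11.9, aligned them to GRCm38 with STAR 2.7.3a and deposited whole-number counts per gene from its GeneCounts mode. The annotation release and the strand setting are not given in the sources used here. Total counts were 59296537 to 72702411 per library, so 3 counts were 0.0418 to 0.0507 CPM.

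Identifiers were matched to GENCODE M21 (45143 of 45706 found). A gene was kept if its counts averaged 1 or more over the libraries (25146 were), and genotypes were compared with edgeR 4.0.16 (TMM factors, quasi-likelihood test, Benjamini-Hochberg adjustment, threshold 0.05) in R 4.3.3, a choice that differs from the study's DESeq2 analysis. DESeq2 1.42.0 served as an alternative. The SE of an edgeR log2 fold change was worked back from the test, as its absolute value divided by the square root of the quasi-likelihood F statistic. Log2 CPM used a prior count of 2. Exact two-sided permutation tests of single values ran over all arrangements of 5 against 5 uteri. Lengths are the merged exons of a gene, and promoter windows came from a RefSeq table (GRCm38.p6). The fits were tested on simulated data in which both genotypes had the same spread for each gene. How they behave when the cKO spread is wider, as for *Muc1*, *Muc4* and *Muc20*, was not tested.

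Alternatives were RLE and upper-quartile factors, filterByExpr, no filter on low counts, DESeq2, a replicate block and each uterus left out. Leaving out cKO replicates 1 and 5 together was added after seeing the data. The mucins and gene lists were chosen with earlier results of these data known. From each list the called genes are named, up to 6 by absolute log2 fold change, and the gene at the highest level, and for each mucin with a mean of at least 100 counts the 3 closest profiles among genes at that level. The nearest tested gene on either side of each mucin, *Arid1a* and *Ltf* are also named. The labels give each library as a sample of its own and do not number the animals, so p-values measure the spread between these samples.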

Additional observations from a re-analysis of the deposited data

Results flagged for a closer look

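In 7 of 74 groups of 5 values examined, 1 uterus stood far from the other 4 of its group by Dixon's test. For independent normal values that test flags about 1 group in 20. The groups here share uteri and include very low counts, so the 7 cannot be set against that rate. Among the mucins, *Muc13* in cKO replicate 5 was at 0.637 CPM, with the other cKO uteri at 0.116 to 0.220 CPM. *Muc15* in control replicate 2 was at 0.0558 CPM, which is 4 reads. *Muc1*, *Muc4* and *Muc20* in the cKO were not flagged, since 2 uteri stood high together. *Ltf* was at 2831 CPM in cKO replicate 5 and at 11.7 CPM in control replicate 1. In cKO replicate 1, *Galnt12* was at 35.9 CPM and *Erbb2* at 107 CPM, each above the other cKO uteri. *Ctnnb1* in control replicate 5 was at 661 CPM, below the other controls.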

How the results depend on the processing

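The edgeR calls of membrane mucins numbered 3, and with 1 uterus left out in turn they numbered 1 to 3, the 1 arising without control replicate 2. Over all genes the count was 2438 with edgeR, 4103 with DESeq2 and 1204 to 2381 with 1 uterus left out. The same-numbered uteri deviated little together (correlations -0.0529 to 0.128), and the labels do not say whether the numbers pair the animals. With the replicate block 1 mucin was called, the log2 fold change was 1.60 for *Muc1* (adjusted p = 0.0922) and 3.95 for *Muc20* (adjusted p = 0.0673), and the differences from the epithelium markers, 3.71 for *Muc4* and 3.04 for *Muc20*, had an exact sign-flip p of 0.0625, the smallest that 5 pairs allow. With 1 uterus left out, log2 fold changes ran from 1.58 to 2.23 for *Muc1*, 4.83 to 6.43 for *Muc4* and 4.82 to 5.98 for *Muc20*. Relative to the epithelium markers the ranges were 0.54 to 1.10 for *Muc1*, 2.89 to 4.25 for *Muc4* and 2.25 to 3.71 for *Muc20*. *Muc13* passed only with DESeq2, at a log2 fold change of 2.23 (adjusted p = 0.0161), and *Muc15* passed in none of its 16 alternatives. With filterByExpr *Muc13* and *Muc15* were not tested. The cause of these changes was not tested. No value reversed its direction where it had been called. The 1 to 7 control reads of *Muc13* and 0 to 4 of *Muc15* limit what can be said of either gene.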
